A study of Homo sapiens with 12 samples.

Results

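The BCL2 family sets the threshold for the mitochondrial route of apoptosis, and 10 of its genes were followed here across the 4 groups of a study of the CDK4/6 inhibitor abemaciclib in breast cancer cells. They were picked by symbol from the 60612 gene entries of the count table: the anti-apoptotic *BCL2*, *BCL2L1* and *MCL1*, the effectors *BAX* and *BAK1*, and the BH3-only genes *BCL2L11*, *BBC3*, *PMAIP1*, *BID* and *BMF*. All 10 were found once each and all 10 were tested in every comparison. ZR-75-1 is an oestrogen receptor-positive, luminal human breast cancer line. Its cells carried either a non-targeting guide RNA (sgControl) or a CRISPR knockout of *RB1*, the gene for the retinoblastoma protein Rb, and each genotype received 500 nM abemaciclib or the same volume of the solvent DMSO for 5 days, with 3 biological replicates in each group. Both genotypes share the ZR-75-1 background. The study's methods describe cloning of isogenic *RB1*-knockout lines from single cells, and for the control give only its guide. The labels do not say how many clones were used, so the effect of *RB1* and of clone choice cannot be told apart.

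Proteins of this family meet on the outer mitochondrial membrane. When BAX or BAK1 is activated it oligomerizes and permeabilizes that membrane, which releases cytochrome c and starts caspase activation. Anti-apoptotic members hold the effectors and the BH3-only proteins in check, and BH3-only proteins carry stress signals by binding the anti-apoptotic members or the effectors directly. In luminal breast cancer BCL2 is known as an oestrogen-induced gene, and abemaciclib keeps Rb in its unphosphorylated, active form.

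Total counts ranged from 39907318 to 81636393 per library, and every library held at least 124 reads of each of the 10 genes. *RB1* had 4153.7 to 4824.6 normalized counts in the sgControl DMSO libraries and 39.6 to 51.2 in knockout cells in DMSO, the order that the genotype labels give. In abemaciclib *RB1* had 2252.3 to 2488.6 in sgControl cells, 1.93-fold lower than in DMSO, and 44.2 to 63.5 in knockout cells. A normalized count is the read count divided by the size factor of its library. All 7 luminal markers examined were present in every group. Of 9 markers of immune, endothelial, stromal and basal cells, 5 to 7 had at most 3 reads in every library of a group. *PTPRC*, *CD3E*, *PECAM1* and *COL3A1* were that low in every group, and *COL1A1* made up nearly all of the sum of the 9 markers. Summed levels of those 9 markers were 2119.7 to 2412.1 in DMSO and 2803.1 to 3044.6 in abemaciclib in sgControl cells, and 1897.7 to 2063.6 and 2582.2 to 2679.6 in knockout cells. Mitochondrial genes held 3.49% ± 0.60 (SD, n = 3) of reads in the sgControl DMSO libraries and 7.73% ± 0.70 in the treated ones, against 3.98% ± 0.18 and 6.13% ± 1.09 in knockout cells. The part of these shifts in the results was not tested. The library sgControl DMSO replicate 1 stood apart from its group: the chi-square per gene of its counts was 50.2 against replicate 2 and 105 against replicate 3, with 18.1 between those 2 and 3.49 to 17.9 between replicates in the other groups. It enters the baseline of every sgControl response and every interaction, so the member calls without it are given with those comparisons. In bulk RNA, a change in the mix of cells and a change in RNA per cell cannot be told apart.

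With Rb present, abemaciclib raised *BCL2*, *BCL2L1*, *BID* and *BAK1* and lowered *BAX* and *BBC3*. The anti-apoptotic pair went up 2.27-fold and 2.02-fold while *BAX* went down 1.99-fold. The other 4 genes, *MCL1*, *BCL2L11*, *PMAIP1* and *BMF*, did not pass the test. Genes were called at an adjusted p under 0.05 in DESeq2. In total 6 of 10 members were called, beside 49.8% of all genes tested (25.0% higher and 24.8% lower) and 72.6% of genes averaging 100 or more normalized counts, so the share of members called is near the background. Their median log2 change was 0.05, beside 0.01 over all genes tested. The 2 groups did not overlap for 7 of 10 members, beside 55.8% of all genes. Without sgControl DMSO replicate 1 there were again 4 members called higher and 2 lower, with log2 differences of 1.08 for *BCL2*, 1.09 for *BCL2L1*, 0.98 for *BID*, 0.29 for *BAK1*, −0.90 for *BAX* and −0.38 for *BBC3*.

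*BCL2* (chr18:63123346-63320128, minus strand, GRCh38), the founding anti-apoptotic member, had 3668.7, 4469.4 and 4674.3 normalized counts in the sgControl DMSO libraries and 9844.5, 10052.3 and 9189.8 in the sgControl abemaciclib libraries. Every treated library was above every DMSO library, a log2 difference of 1.18 ± 0.08 (SE, adjusted p = 1.04e-46). *BCL2L1* (chr20:31664452-31723989, minus strand) encodes BCL-XL and, by splicing, the pro-apoptotic BCL-XS, which gene counts cannot separate. Its normalized counts were 9745.5, 8543.1 and 8176.8 in DMSO and 18109.1, 17181.2 and 18073.0 in abemaciclib, again without overlap (log2 difference 1.01 ± 0.07, adjusted p = 1.00e-44). *MCL1* (chr1:150560895-150579738, minus strand), a short-lived anti-apoptotic protein whose gene also has a pro-apoptotic splice form, gave 11355.1, 11152.8 and 10834.6 in DMSO and 10644.1, 11578.1 and 11427.3 in abemaciclib. The *MCL1* groups overlapped, and the log2 difference of 0.01 had a 95% confidence interval of −0.07 to 0.10.

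*BAX* (chr19:48954815-48961798, plus strand), the effector that moves from the cytosol to mitochondria, had 5637.5, 4795.5 and 4566.6 normalized counts in sgControl cells in DMSO. In abemaciclib the 3 libraries lay close together at 2504.5, 2500.9 and 2546.8, all below the DMSO libraries (log2 difference −0.99 ± 0.08, adjusted p = 9.70e-38). *BAK1* (chr6:33572547-33580293, minus strand), the effector that resides on mitochondria, moved the other way. Its counts were 1427.1, 1319.4 and 1207.6 in DMSO and 1524.9, 1516.1 and 1582.1 in abemaciclib, a log2 difference of 0.23 ± 0.07 (adjusted p = 0.00526). The *BAK1* call was lost without sgControl DMSO replicate 3 (adjusted p = 0.0580), with the 6 sgControl libraries fitted alone (0.0625) and with library totals as size factors (0.213).

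Among BH3-only genes, *BID* (chr22:17734138-17774770, minus strand), which links death receptors to mitochondria after cleavage by caspase-8, had 3735.7, 3259.3 and 3223.5 normalized counts in DMSO and 6178.2, 6158.4 and 6918.8 in abemaciclib in sgControl cells. The treated libraries were all higher, by 1.89-fold (log2 difference 0.91 ± 0.07, adjusted p = 4.59e-38). *BBC3* (chr19:47220822-47232766, minus strand), which encodes the p53 target PUMA, went from 582.7, 489.2 and 505.2 to 354.6, 369.3 and 422.0, also without overlap (log2 difference −0.46 ± 0.09, adjusted p = 4.86e-06). *BMF* (chr15:40087890-40108892, minus strand), known for binding the cytoskeletal motor light chain, had the lowest counts of the 10 genes, 163.8, 167.5 and 166.3 in DMSO and 133.6, 147.9 and 129.5 in abemaciclib. Its groups did not overlap, but the log2 difference of −0.28 ± 0.13 had an adjusted p of 0.0746, and of 0.0307 with edgeR. *BCL2L11* (chr2:111119378-111168444, plus strand), which encodes BIM, and *PMAIP1* (chr18:59899996-59904305, plus strand), which encodes the MCL1-binding NOXA, each had overlapping groups. Their log2 differences were 0.04 ± 0.08 and 0.07 ± 0.12.

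**Figure D1:**
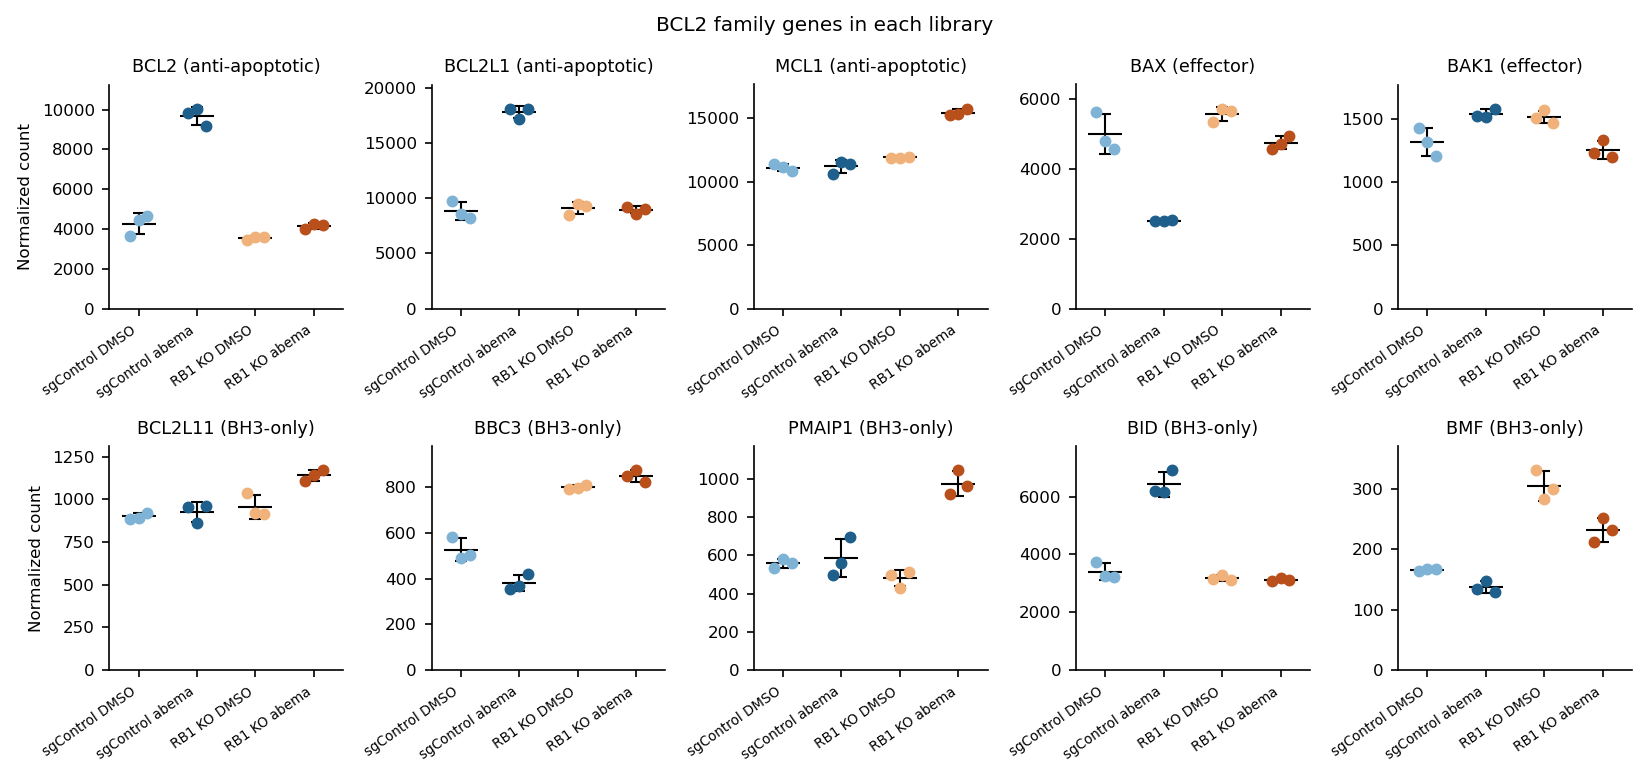
Normalized counts (y axis, from 0, one scale per gene) of the 10 genes in each of the 12 libraries, by group (x axis); points are libraries and black bars the mean ± SD of 3. *BCL2*, *BCL2L1* and *BID* are high only in the sgControl abemaciclib group, *BAX* is low there, and *MCL1* and *PMAIP1* are highest in knockout cells in abemaciclib.

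Promoter sequences were examined because *BAX* and *BBC3* were the members called lower in sgControl cells. RefSeq promoters (GRCh38.p14) were matched for 9 of the 10 genes, all but *MCL1*. In the 250 bases before the *BAX* start, the E-box CACGTG occurred 4 times, beginning 138, 93, 45 and 14 bases before the start. Of 35116 promoters of 27305 genes in the same table, 6.34% held at least 1 E-box and 5 held at least 4. *BBC3* had 1 E-box, 232 bases before its start, 2 of the 5 alternative *BID* promoters overlap and share 1 E-box at the same genomic site, and no other member had any. The part of each window that precedes the annotated gene is shown for both genes, with E-boxes in capitals. For *BAX* it is chr19:48954625-48954814 on the plus strand, which holds the E-boxes at 138 and 93 bases. For *BBC3* it is chr19:47232767-47232917, read on the minus strand.
BAX: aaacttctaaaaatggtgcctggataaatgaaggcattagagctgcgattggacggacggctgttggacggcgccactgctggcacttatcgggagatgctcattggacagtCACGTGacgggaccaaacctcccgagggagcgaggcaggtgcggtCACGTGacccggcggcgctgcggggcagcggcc
BBC3: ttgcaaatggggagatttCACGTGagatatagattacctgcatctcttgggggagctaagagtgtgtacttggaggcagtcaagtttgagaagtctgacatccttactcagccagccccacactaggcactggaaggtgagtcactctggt

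Other motifs were searched on both strands in the same windows. The E2F motif, as TTTCCCGC, TTTCGCGC, TTTGCCGC or TTTGGCGC, the oestrogen response element GGTCANNNTGACC and the cAMP response element TGACGTCA were in no member's window. They were present in 2.79%, 0.0399% and 1.65% of all promoters. A match is a stretch of letters and not a measured binding site, and a missing match says only that these letters are not in the window.

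In *RB1*-knockout cells abemaciclib raised *PMAIP1* 2.04-fold, *MCL1* 1.30-fold, *BCL2L11* 1.20-fold and *BCL2* 1.17-fold, and lowered *BMF*, *BAK1* and *BAX*. Of these, *BCL2* and *BAX* moved the same way as in sgControl cells and *BAK1* the opposite way. Here 7 of 10 members were called, beside 30.0% of all genes tested (14.9% higher and 15.1% lower) and 40.6% of genes with a mean of at least 100. The groups did not overlap for 8 of 10 members, beside 49.4% of all genes. The median log2 change of the 10 genes was 0.03, beside 0.02 over all genes tested.

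*PMAIP1* had 495.9, 431.9 and 512.7 normalized counts in knockout cells in DMSO and 919.6, 1047.6 and 962.3 in abemaciclib. All treated libraries were well above the DMSO libraries (log2 difference 1.03 ± 0.12, adjusted p = 2.36e-16). *MCL1* went from 11858.8, 11906.8 and 11981.9 to 15222.6, 15367.1 and 15770.6, with very little spread inside either group (log2 difference 0.38 ± 0.04, adjusted p = 2.65e-15). *BCL2L11* went from 1035.6, 918.9 and 911.7 to 1105.3, 1142.4 and 1171.1 (log2 difference 0.26 ± 0.08, adjusted p = 0.00419). Its gene overlaps *MIR4435-2HG* on the opposite strand, which held 20.7% to 36.7% as many reads as *BCL2L11*, and reads of the pair could have been shared between them if strand was not used in counting.

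*BAK1* had 1505.6, 1568.9 and 1469.9 normalized counts in knockout cells in DMSO and 1226.5, 1335.1 and 1196.3 in abemaciclib, a lower level in every treated library (log2 difference −0.27 ± 0.08, adjusted p = 0.00193). *BAX* had 5346.0, 5734.7 and 5656.8 in DMSO and 4571.8, 4725.4 and 4948.6 in abemaciclib (log2 difference −0.23 ± 0.08, adjusted p = 0.00946). *BMF* fell from 330.6, 283.2 and 299.0 to 211.8, 250.6 and 231.0 (log2 difference −0.39 ± 0.12, adjusted p = 0.00784). *BCL2* rose slightly, from 3441.5, 3596.2 and 3617.3 to 3978.4, 4223.2 and 4220.3 (log2 difference 0.22 ± 0.08, adjusted p = 0.0279).

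Of the 7 calls in knockout cells, those of *BCL2*, *BAX* and *BMF* were lost when some single libraries were left out, although the log2 differences stayed at 0.20 to 0.25, −0.26 to −0.21 and −0.45 to −0.33 over all alternatives. The *BCL2* call was lost without any one of knockout DMSO replicates 1, 2 and 3 or abemaciclib replicates 2 and 3 (adjusted p = 0.114, 0.0644, 0.0574, 0.105 and 0.0990). The *BAX* call was lost without knockout DMSO replicate 2 or 3 or abemaciclib replicate 1 (0.0641, 0.0502 and 0.0607), and the *BMF* call without DMSO replicate 1 or abemaciclib replicate 1 (0.0687 and 0.0629). Without abemaciclib replicate 1, 1 member rather than 3 was called lower.

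*BCL2L1*, *BID* and *BBC3* did not pass the test in knockout cells. *BCL2L1* had 8458.2, 9473.0 and 9302.5 normalized counts in DMSO and 9176.4, 8588.5 and 9036.7 in abemaciclib, with overlapping groups. The 95% confidence interval of its log2 difference, −0.16 to 0.12, lies well under the 1.01 measured in sgControl cells. *BID* had 3140.9, 3283.3 and 3125.1 in DMSO and 3065.6, 3167.1 and 3097.6 in abemaciclib, with an interval of −0.17 to 0.11. *BBC3* had 793.8, 797.7 and 810.5 in DMSO and 848.2, 875.0 and 823.1 in abemaciclib. Its groups did not overlap, yet the log2 difference of 0.08 ± 0.09 had an adjusted p of 0.540.

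**Figure D2:**
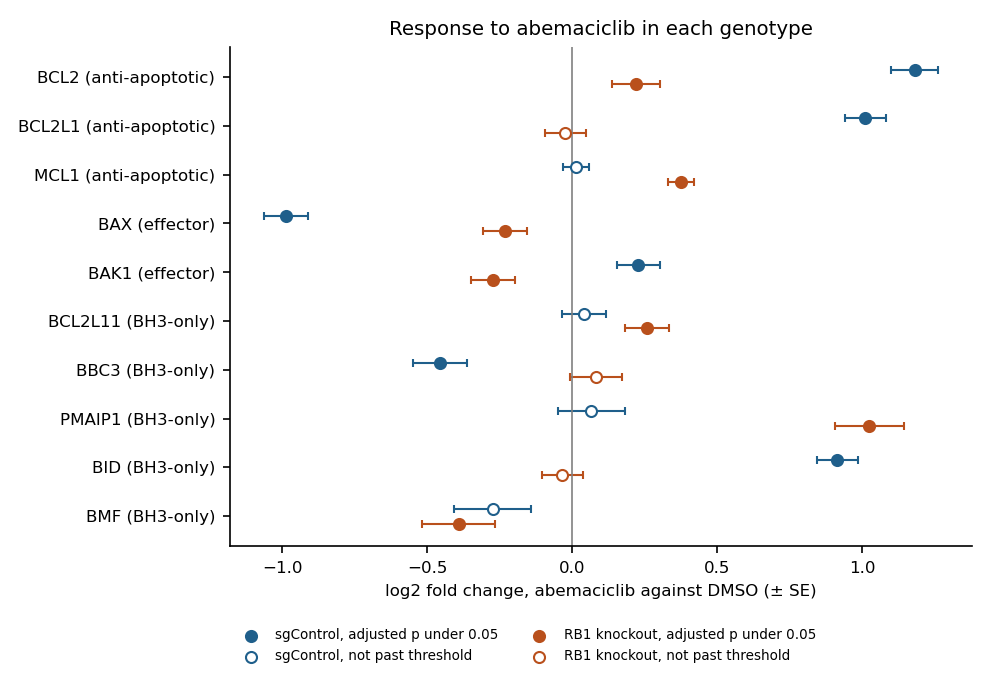
Log2 fold change of abemaciclib against DMSO (x axis) for each gene (y axis, with its role) in sgControl cells (blue) and *RB1*-knockout cells (orange); bars are ± SE and filled points have an adjusted p under 0.05. The sgControl points of *BCL2*, *BCL2L1* and *BID* lie near 1 and that of *BAX* near −1, while in knockout cells *PMAIP1* lies farthest from 0, at 1.03.

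Whether the response differed with *RB1* was tested by the interaction, the response in knockout cells minus that in sgControl cells. Of the 10 members, 8 had responses that differed between genotypes, 4 in each direction, beside 41.4% of all genes tested (21.1% higher and 20.3% lower) and 59.3% of genes with a mean of at least 100. The responses of *BCL2L1*, *BCL2* and *BID* were lower in knockout cells by log2 differences of −1.04 ± 0.10, −0.96 ± 0.12 and −0.95 ± 0.10 (adjusted p = 2.00e-23, 1.25e-15 and 3.48e-20). *BAK1* responded in opposite directions, upward with Rb and downward without it (interaction −0.50 ± 0.11, adjusted p = 1.18e-05). The responses of *PMAIP1*, *BAX*, *BBC3* and *MCL1* were higher in knockout cells. *BCL2L11* (0.22 ± 0.11, adjusted p = 0.0933) and *BMF* (−0.12 ± 0.18, adjusted p = 0.665) did not pass the test of the difference. *BCL2L11* did pass without knockout DMSO replicate 1 (adjusted p = 0.0298). Without sgControl DMSO replicate 1 the counts were again 4 and 4, and *BCL2* and *BAX* had interactions of −0.86 and 0.66. The interaction uses the same libraries as both responses and is not independent of them.

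A ratio of 2 genes inside a library does not depend on the size factor. The ratios of *BCL2* and *BCL2L1* reads to *BAX* reads were chosen after the values had been seen. *BCL2* reads per *BAX* read were 0.651, 0.932 and 1.02 in the sgControl DMSO libraries and 3.93, 4.02 and 3.61 in abemaciclib, a 4.51-fold rise in the geometric mean. The lowest DMSO value, 0.651, is that of replicate 1, the library that stood apart from its group, and it enlarges this fold. In knockout cells they were 0.644, 0.627 and 0.639 in DMSO and 0.870, 0.894 and 0.853 in abemaciclib, 1.37-fold higher. *BCL2L1* reads per *BAX* read averaged 1.77 ± 0.03 (SD, n = 3) in DMSO and 7.07 ± 0.18 in abemaciclib in sgControl cells, a 4.00-fold difference. The corresponding values in knockout cells were 1.63 ± 0.04 and 1.88 ± 0.11, a 1.16-fold difference. Groups did not overlap in any of the 8 comparisons of these ratios, and each reached the smallest p that an exact two-sided permutation test of 3 against 3 allows, 0.1 (0.1 after Benjamini–Hochberg adjustment over 8), which is above 0.05.

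**Figure D3:**
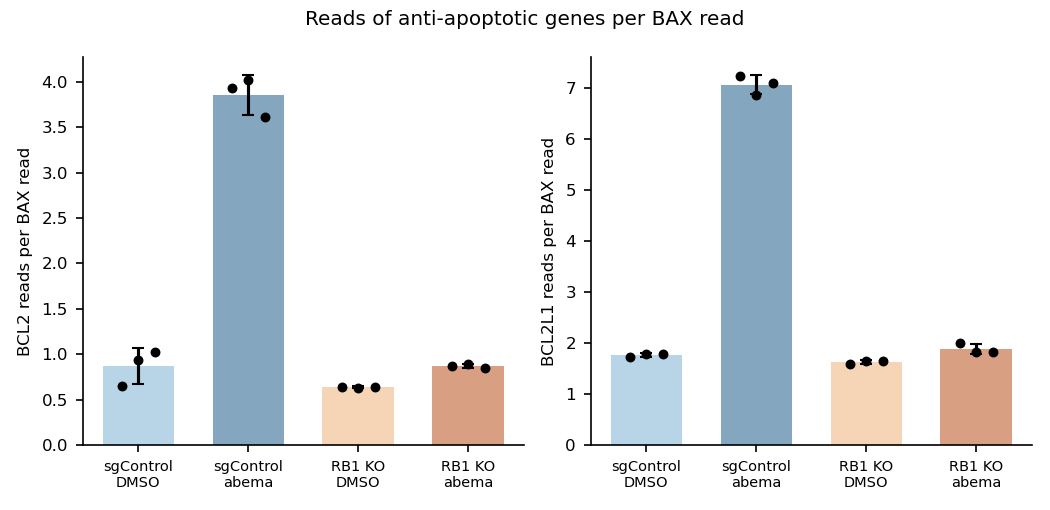
Raw *BCL2* reads (left) and *BCL2L1* reads (right) per *BAX* read in the same library (y axes, from 0) in each group (x axis); bars are means, error bars SD and points the 3 libraries. The sgControl abemaciclib libraries stand at 3.61 to 4.02 for *BCL2* and at 6.87 to 7.23 for *BCL2L1*, all above the libraries of the other groups.

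In DMSO, knockout and sgControl cells differed in 2 of 5 BH3-only genes, 1 of 3 anti-apoptotic genes and 1 of 2 effectors. *BMF* was 1.83-fold higher in knockout cells (log2 difference 0.87 ± 0.13, adjusted p = 6.09e-11) and *BBC3* 1.53-fold higher (0.61 ± 0.09, adjusted p = 3.19e-10), with no overlap between the libraries already listed. *BCL2* was 1.20-fold lower (−0.27 ± 0.08, adjusted p = 0.00471). *BAK1* was 1.15-fold higher (0.20 ± 0.08, adjusted p = 0.0212), a call lost without sgControl DMSO replicate 2 or 3 or knockout DMSO replicate 1 or 2 (adjusted p = 0.0674, 0.155, 0.0641 and 0.133) and with the 6 DMSO libraries fitted alone (0.0972). In all, 3 members were called higher and 1 lower, 4 of 10, beside 37.4% of all genes tested (19.2% higher and 18.2% lower) and 45.0% of genes with a mean of at least 100. Groups did not overlap for 6 of 10 members, beside 46.3% of all genes. The library sgControl DMSO replicate 1 decided several values. Without it 5 members were called higher, as *BAX* (log2 difference 0.25, adjusted p = 1.41e-05) and *MCL1* (0.11, adjusted p = 0.0329) then passed.

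In abemaciclib all 10 members differed between genotypes and none had overlapping groups. Knockout cells had 2.34-fold less *BCL2*, 2.06-fold less *BID*, 1.99-fold less *BCL2L1* and 1.23-fold less *BAK1* than sgControl cells. They had 2.22-fold more *BBC3*, 1.89-fold more *BAX*, 1.69-fold more *BMF*, 1.67-fold more *PMAIP1*, 1.38-fold more *MCL1* and 1.23-fold more *BCL2L11*. Adjusted p-values ran from 4.98e-50 for *BCL2* to 0.000192 for *BAK1*. The background is high, with 55.9% of all genes called (28.5% higher and 27.4% lower), 74.4% of genes with a mean of at least 100 and 65.7% of genes without overlap. By role, 2 of 3 anti-apoptotic genes were lower in knockout cells and 4 of 5 BH3-only genes were higher, and the effectors split. *BMF* and *BBC3* were higher in knockout cells in both treatments.

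**Figure D4:**
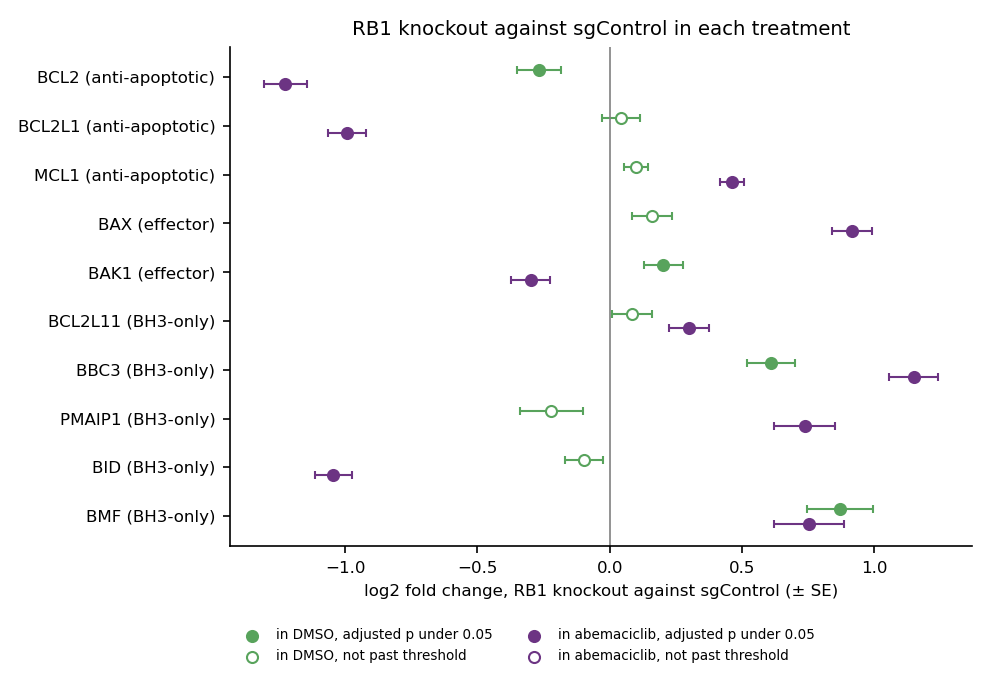
Log2 fold change of *RB1* knockout against sgControl (x axis) for each gene (y axis, with its role) in DMSO (green) and abemaciclib (purple); bars are ± SE and filled points have an adjusted p under 0.05. In DMSO 4 genes are filled and only *BMF* and *BBC3* exceed 0.5, whereas in abemaciclib all 10 are filled, from −1.23 for *BCL2* to 1.15 for *BBC3*.

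Levels can be compared between genes only per length, so normalized counts were divided by the length of the annotated exons in kilobases (kb). In sgControl cells in DMSO the levels per kb were highest for *BCL2L1* (2101.9 ± 195.5, SD, n = 3), *BAX* (1932.7 ± 218.0) and *MCL1* (1786.3 ± 42.2), and neighbours in this order overlapped. Below them came *BID* (770.6 ± 64.7), *BAK1* (595.9 ± 49.6), *BCL2* (338.6 ± 42.1), *PMAIP1* (255.9 ± 11.0), *BBC3* (165.1 ± 15.7), *BCL2L11* (133.4 ± 2.9) and *BMF* (30.5 ± 0.3), with no overlap between neighbours. In abemaciclib *BCL2L1* stood clear of the rest in sgControl cells, at 4238.2 ± 125.2, and *BAX* took rank 4 at 973.1 ± 9.9, below *MCL1* (1802.7 ± 80.6) and *BID* (1452.1 ± 98.1). In that group *BCL2L11* (137.2 ± 8.6) and *BBC3* (119.9 ± 11.1) overlapped.

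In knockout cells in DMSO *BCL2L1* (2162.9 ± 129.5) and *BAX* (2156.6 ± 79.5) overlapped at the top, followed by *MCL1* (1915.1 ± 10.0). *BID* (720.2 ± 19.7) and *BAK1* (684.8 ± 22.7) also overlapped, and *BCL2* (281.6 ± 7.6), *BBC3* (251.4 ± 2.8), *PMAIP1* (219.7 ± 19.5), *BCL2L11* (141.7 ± 10.3) and *BMF* (55.9 ± 4.4) followed without overlap. In knockout cells in abemaciclib *MCL1* came first, at 2483.7 ± 45.6 per kb, above *BCL2L1* (2128.6 ± 73.2) and *BAX* (1835.6 ± 73.2). That order depends on the length used. Per kb of the longest transcript *BAX* came first in this group, at 3496.8, with *MCL1* at 3396.4 and *BCL2L1* at 2743.0. In knockout cells in DMSO *BAX* also came first on that length, at 4108.4 against 2787.2 for *BCL2L1*. Per kb of annotated exons *PMAIP1*, at 446.7 ± 29.8, exceeded *BCL2* at 328.3 ± 11.1 in knockout cells in abemaciclib. Per kb of the longest transcript *BCL2* was the higher of the pair, at 555.0 against 514.2. The labels name a directional whole-transcript kit and the study's general methods a 3′ mRNA kit, and a level per kb is meaningful only with the former.

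The genes whose log2 levels followed each member most closely over the 12 libraries, out of 11874 genes with a mean of at least 100, are given as a description. The points share 4 groups of 3 libraries, so any gene with the same group pattern scores high. *BID* was closest to *PSAP*, which encodes the lysosomal precursor prosaposin (Pearson r = 0.998). *BCL2L1* was closest to *TNIP1* (0.997), *BCL2* to *ATXN7L1* (0.996), *BAX* to *FBL*, the nucleolar methyltransferase fibrillarin (0.995), and *BBC3* to *SPHK1*, sphingosine kinase 1 (0.995). The best matches of *BMF* (*SLC16A3*, a lactate transporter, 0.982), *MCL1* (*ALDH3B1*, 0.978), *BAK1* (*SNAP47*, 0.948), *BCL2L11* (*LNX2*, 0.941) and *PMAIP1* (*PTCHD1*, 0.930) were looser.

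The rest of the apoptosis machinery was read through 6 lists with 71 genes, whose counts stand beside the shares of all genes tested given above (25.0% higher and 24.8% lower in the sgControl response, 14.9% and 15.1% in the knockout response, 21.1% and 20.3% in the interaction). Of genes with a mean of at least 100, 72.6%, 40.6% and 59.3% were called in either direction in these comparisons. Of the 13 other BCL2 family genes, 12 were tested in sgControl and 10 in knockout cells. Among them 5 rose and 3 fell with abemaciclib in sgControl cells, and none rose and 4 fell in knockout cells. *BCL2L2*, which encodes the anti-apoptotic BCL-W, fell in both (log2 differences −1.02 ± 0.12 and −0.49 ± 0.12). *BOK*, a BAX-like gene, rose with Rb present (0.83 ± 0.07) and fell without it (−0.19 ± 0.07), and *BNIP3L*, a mitophagy receptor, rose in sgControl cells (0.78 ± 0.06). Median log2 changes over this list were 0.22 (sgControl) and −0.24 (knockout), beside 0.01 and 0.02 over all genes tested. In the interaction 1 was higher and 6 were lower in knockout cells, with *BOK* at −1.02 ± 0.10.

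Downstream of the mitochondrion, 5 of 16 genes of the apoptosome, caspases and released proteins rose and 8 fell in sgControl cells, against 1 and 4 in knockout cells. All 16 were tested, and the 13 and 5 calls stand beside 49.8% and 30.0% of all genes tested. They also stand beside 72.6% and 40.6% of genes with a mean of at least 100. *APAF1*, the apoptosome scaffold, fell in both (−1.19 ± 0.13 and −0.34 ± 0.13), and *VDAC3*, an outer membrane channel, and *DFFB*, the DNA-fragmenting nuclease, fell in sgControl cells (−0.99 ± 0.08 and −0.80 ± 0.17). The list medians were −0.22 and −0.12. Of 7 inhibitors of apoptosis, 6 were tested, and 1 rose and 1 fell in sgControl cells while 2 rose and none fell in knockout cells. *XIAP*, a direct caspase inhibitor, rose in both genotypes (0.44 ± 0.09 and 0.31 ± 0.09). *BIRC5*, which encodes the mitotic protein survivin, fell in sgControl cells from 11641.2 ± 978.3 to 1693.0 ± 6.1 normalized counts (−2.78 ± 0.06) and was 9070.5 ± 279.6 and 8667.6 ± 222.0 in knockout cells. The list medians were 0.04 and 0.15.

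The death receptor pathway feeds into the family through BID. Of its 12 listed genes 11 were tested, beside 49.8% and 30.0% of all genes called in the respective responses. Of them 3 rose and 6 fell with Rb present, against 2 and 5 in knockout cells, with medians of −0.20 and −0.13. With library totals as size factors 1 rather than 3 rose in sgControl cells, and in knockout cells 1 rose and 3 fell. *FAS*, the receptor of FAS ligand, fell from 527.1 ± 42.8 to 52.6 ± 4.6 normalized counts with Rb present (−3.32 ± 0.15) and from 529.3 ± 54.3 to 421.5 ± 18.5 in its absence (−0.33 ± 0.11), a tested difference of 2.99 ± 0.19 (adjusted p = 5.85e-56). The TRAIL receptor genes *TNFRSF10A* and *TNFRSF10B* fell in sgControl cells by 0.92 ± 0.07 and 0.89 ± 0.09 on the log2 scale. In knockout cells *TNFRSF10A* fell as well (−0.19 ± 0.07, adjusted p = 0.0169), and *TNFRSF10B* had a log2 difference of 0.00 ± 0.09 (adjusted p = 0.987).

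Among 15 transcription factors known to act on family genes, 8 rose and 6 fell with Rb present, against 5 and 2 in knockout cells. These calls stand beside 72.6% and 40.6% of genes with a mean of at least 100. *JUN*, an AP-1 subunit, rose in both (2.11 ± 0.13 and 2.75 ± 0.13). *TP73*, a p53 relative and E2F target, fell in sgControl cells (−1.94 ± 0.09) and had an interaction of 2.10 ± 0.12. *ESR1*, the gene of the oestrogen receptor, differed in its response between genotypes by −0.98 ± 0.14, and *FOXO4* by −1.51 ± 0.14. The list medians were 0.20 and −0.05. Of 8 genes for turnover and sequestration of family proteins 7 were tested, and 2 rose and 1 fell with Rb present and 1 fell in its absence, with medians of 0.07 and −0.08. With library totals none rose and 2 fell in sgControl cells. *DYNLL1*, a light chain that binds BIM, fell in both (−0.29 ± 0.09 and −0.36 ± 0.09).

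**Figure D5:**
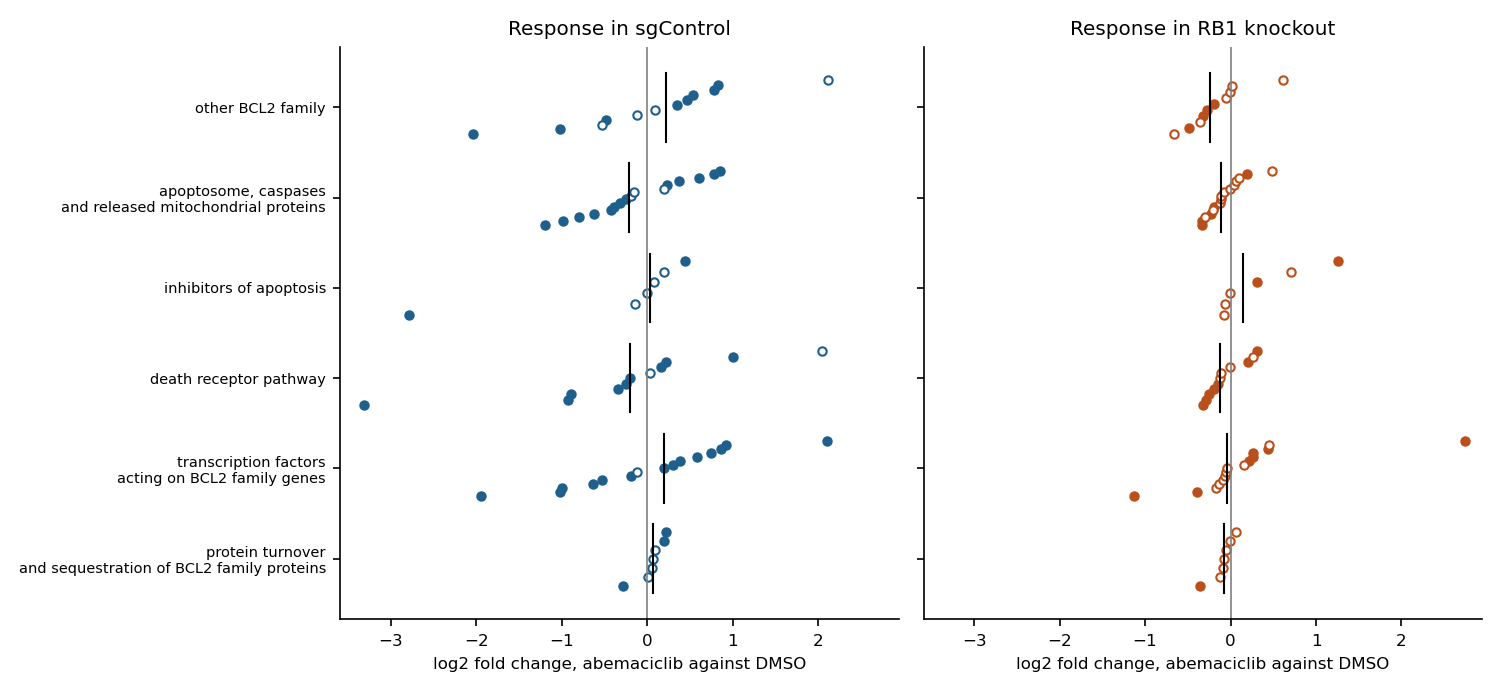
Log2 fold change of abemaciclib against DMSO (x axes, same scale) for the tested genes of 6 apoptosis lists (y axis) in sgControl cells (left) and *RB1*-knockout cells (right); filled points have an adjusted p under 0.05, vertical bars are list medians, and points in a list are ordered by value. *FAS* (−3.32) and *BIRC5* (−2.78) lie far left in sgControl cells, and *JUN* lies far right in both panels.

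Between genotypes in DMSO, where 19.2% of all genes tested were higher and 18.2% lower, the 6 lists had between 0 and 4 genes higher and between 1 and 4 lower in knockout cells, for example *TP73* higher (0.84 ± 0.08) and *BNIP3L* lower (−0.58 ± 0.07). In abemaciclib the death receptor list had 7 of 11 tested genes higher and 2 lower in knockout cells, beside 28.5% and 27.4% of all genes tested, led by *FAS* (3.00 ± 0.15), with a median of 0.56 beside 0.02 over all genes tested. Of genes with a mean of at least 100, 74.4% were called in either direction. The other family genes had 1 of 12 tested higher and 5 lower, led by *BNIP3L* (−1.37 ± 0.07) and *BOK* (−1.17 ± 0.07). *BIRC5* was higher by 2.36 ± 0.06 in knockout cells.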

How the data were processed

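RNA-seq was done on 12 libraries of ZR-75-1 cells. The deposited values are raw read counts per gene: the authors trimmed reads with BBDuk, aligned them to hg38 with STAR 2.7.5b and counted them with featureCounts 2.0.1 on a GENCODE annotation. Strand and multi-mapping settings are not given in the sources used here. Of 60656 table entries, 44 named NA (0% of counts) were left out. The 10 members and the 6 lists were chosen with earlier results of these data known. One DESeq2 1.42.0 model (R 4.3.3) with a group term was fitted to all 12 libraries, with median-of-ratios size factors, two-sided Wald tests, no shrinkage and Benjamini–Hochberg adjustment after independent filtering. P-values measure the spread between these replicates only. Scripts were tested on simulated data.

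In each list and comparison up to 3 called genes could be named, those of greatest absolute log2 change whose mean normalized count reached 100. The genes *FASLG*, *BCL2A1*, *BIRC7* and *TRIM17* among others were too low to test. Exon lengths and coordinates are from GENCODE release 44, promoters from RefSeq, both on GRCh38. Replicate numbers are not explained in the labels. Deviations of same-numbered libraries from their group means correlated by 0.11 to 0.26 between genotypes in abemaciclib, above the minimum of 0.1 for every pair, and not for every pair in the other comparisons (−0.25 to 0.25). Alternatives were edgeR 4.0.16, library totals as size factors, a low-count filter, a replicate block, the 6 compared libraries alone and leaving out each library.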

Additional observations from a re-analysis of the deposited data

Results flagged for a closer look

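For 8 of the 10 genes the response to abemaciclib differed between the genotypes by the test of the difference itself, here as the log2 response in *RB1*-knockout cells minus that in sgControl cells. The difference was −1.04 for *BCL2L1*, −0.96 for *BCL2*, −0.95 for *BID* and −0.50 for *BAK1*. It was 0.96 for *PMAIP1*, 0.76 for *BAX*, 0.54 for *BBC3* and 0.36 for *MCL1*. All 8 stayed past the threshold under each alternative run. These include leaving out sgControl DMSO replicate 1, the library that stood apart from its group.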

How the results depend on the processing

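Of 840 recomputed values of the 10 genes over 5 comparisons, 803 kept their direction and side of the threshold, 19 lost a call, 7 gained one and 11 changed sign, none of the last a called value. Library totals as size factors moved the median gene (mean of at least 100) to −0.16 in the sgControl response, from −0.02, and to 0.13 in the interaction. They turned the sgControl responses of *MCL1* (−0.116), *BCL2L11* (−0.0943) and *PMAIP1* (−0.0653) and the *BMF* interaction (0.0204), and ended the *BCL2* call in knockout cells (adjusted p = 0.101). With the 6 sgControl libraries alone *MCL1* was −0.00860. The sgControl *BMF* response gained a call with library totals (adjusted p = 0.00922) and with the low-count filter (0.0491), and the *BCL2L11* interaction with library totals (0.0134). The cause was not tested. Leaving out one library gave −0.00827 to 0.0527 for *MCL1* and −0.0729 to 0.167 for *PMAIP1* in sgControl cells, −0.0719 to 0.00890 for *BCL2L1* in knockout cells and −0.0121 to 0.118 for its genotype difference in DMSO. It gave 1 to 3 members called lower in knockout cells and 2 to 5 called higher in knockout cells in DMSO. The replicate block left all 50 member values on their side of the threshold and moved the death receptor genes called higher in knockout cells in DMSO from 2 to 4. Per kb of the longest transcript, sgControl DMSO levels were 572.4 for *BCL2*, 2708.6 for *BCL2L1*, 2442.7 for *MCL1*, 3681.8 for *BAX*, 173.9 for *BCL2L11*, 284.8 for *BBC3*, 294.6 for *PMAIP1*, 1365.2 for *BID* and 35.4 for *BMF*, because that length is shorter, and *BAX* then came first. Library totals also moved 13 list counts by over 1.5 times.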
